A study of Mus musculus with 15 samples.

Results

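Tnfrsf12a, the receptor for the cytokine TWEAK, was examined in mouse kidney together with its ligand Tnfsf12, the related receptors Tnfrsf1a, Tnfrsf1b and Tnfrsf10b, and the receptor adaptors Traf2, Birc2 and Birc3. These 8 genes were taken from the 13933 genes that had at least 1 annotated transcript in every file. Tnfrsf12a was selected on its measured values, because its FPKM (fragments scaled to transcript length and to library depth) was high with Ang II and low again with QDG, so its differences between groups are given as a description with no test. The other 7 genes were chosen by their place in the same pathway, with earlier results of these data known, and their comparisons were tested. The data came from the kidneys of 15 wild-type male C57BL/6 mice, bought at 8 weeks of age, in groups of 5. Mice of the Control group were infused with saline, those of the Ang II group with angiotensin II at 500 ng/kg/min, and those of the Ang II + QDG group with the same dose of angiotensin II plus Qingda granule, a herbal formula, at 1.145 g/kg/day by gavage. Treatment lasted 28 days, and per the study's methods the pumps were osmotic and the mice without QDG were gavaged with water. Whole renal tissue was sequenced, so fewer cells of a type and less RNA per cell cannot be told apart.

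TNF family receptors are membrane proteins that trimeric ligands of the TNF family engage. Tnfrsf12a, also called Fn14, is a short receptor without a death domain, and it is known to be induced in injured epithelium and by growth factors. Its cytoplasmic tail recruits TRAF adaptors, which carry the ubiquitin ligases cIAP1 (Birc2) and cIAP2 (Birc3), and the complex governs both the canonical and the non-canonical NF-kappaB routes. Tnfrsf1a, the main TNF receptor of most tissues, and Tnfrsf10b, the mouse receptor for TRAIL, do carry death domains, whereas Tnfrsf1b binds TRAF2 directly.

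Tnfrsf12a (ENSMUSG00000023905) lies on the minus strand of chromosome 17, from 23675445 to 23677468 on GRCm38. The RefSeq table of gene starts (GRCm38.p6) held a promoter window for 6 of the 8 genes. The 250 bases before the Tnfrsf12a start are shown because this gene carried the change between groups; the GENCODE transcript begins within the last bases of this window. Capitals mark matches to GGGCGG on either strand.

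Tnfrsf12a promoter, chr17:23677450-23677699, minus strand: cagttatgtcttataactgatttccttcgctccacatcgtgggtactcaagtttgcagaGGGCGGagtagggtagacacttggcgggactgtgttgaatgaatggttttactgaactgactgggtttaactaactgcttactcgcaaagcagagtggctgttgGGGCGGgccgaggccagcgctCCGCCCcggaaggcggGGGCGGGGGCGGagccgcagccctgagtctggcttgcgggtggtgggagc

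The GC box GGGCGG occurred 5 times in this window, with first bases at -191, -87, -66, -50 and -44 from the start and with no overlap. The match at -66 was on the opposite strand. Of all 32851 promoter windows of this length, 32.7% held at least 1 such match. The AP-1 motif TGANTCA was not found in these letters, and 6.7% of all windows held it. The kappaB motif and the SRF CArG motif were not found either, against 7.3% and 1.5% of all windows. Among the 6 genes with a window, the GC box was also present in those of Tnfrsf1b and Birc2.

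The implied total per mouse ranged from 68924100 to 81320000 reads or fragments. Each Control file listed 41477 transcripts and each file of the other groups 42310, with 1423 transcripts only in the former and 2256 only in the latter, and only the shared transcripts were used. In comparisons with Control, any effect of the lists on the values cannot be told apart from that of the group. Gene levels of mice within a group correlated at r = 0.943 to 0.958 on the log2 scale. All 8 kidney epithelium markers had values, summing to 3323 to 4290 FPKM per mouse. Ren1 (renin), whose mRNA angiotensin II is known to lower, had 33.2 ± 3.79 FPKM in Control mice and 30.1 ± 8.97 FPKM in Ang II mice (SD, n = 5 each), a log2 difference of -0.18 (standard error 0.25, limma adjusted p = 0.718). This known response was thus not detected here. In the test over 12366 genes, 612 genes rose and 123 fell in Ang II against Control at an adjusted p under 0.05, 83.3% of the calls being higher. With quantile normalization or median scaling the share of higher calls was 46.0% and 42.6%, so the direction of small differences rests on the scaling of the deposited FPKM.

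Tnfrsf12a mRNA was about 2.38 times as high in Ang II as in Control kidneys by group mean, and 0.909 times the Control level in Ang II + QDG kidneys. The 5 Control mice had 10.1, 11.6, 8.40, 11.2 and 9.46 FPKM. The 5 Ang II mice had 24.99, 31.1, 25.1, 23.0 and 16.4 FPKM. The 5 Ang II + QDG mice had 7.05, 9.72, 9.12, 8.25 and 12.03 FPKM. Every Ang II mouse lay above every mouse of both other groups, and the other two groups overlapped. The nearest values across the gap were 16.4 FPKM in Ang II mice and 12.03 FPKM in Ang II + QDG.

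Group means of Tnfrsf12a were 10.2 ± 1.31, 24.1 ± 5.26 and 9.23 ± 1.86 FPKM (SD, n = 5 each) in the order Control, Ang II, Ang II + QDG. The difference of means on the log2(FPKM + 1) scale was 1.15 for Ang II against Control, -1.29 for Ang II + QDG against Ang II and -0.13 for Ang II + QDG against Control, against a within-group SD of 0.26. All values of this gene came from 1 of its 6 annotated transcripts, Tnfrsf12a-201, a protein-coding transcript of 984 bases. The values stood for 620 to 931 reads in Control mice, 1243 to 2425 in Ang II mice and 483 to 829 in Ang II + QDG mice, so counting error was small beside the spread between mice. When each mouse was left out in turn, or another scaling or filter was used, the log2 difference stayed between 1.06 and 1.28 for Ang II against Control and between -1.41 and -1.19 for Ang II + QDG against Ang II. These ranges are also a description, since the same mice were used to select the gene.

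**Figure D1:**
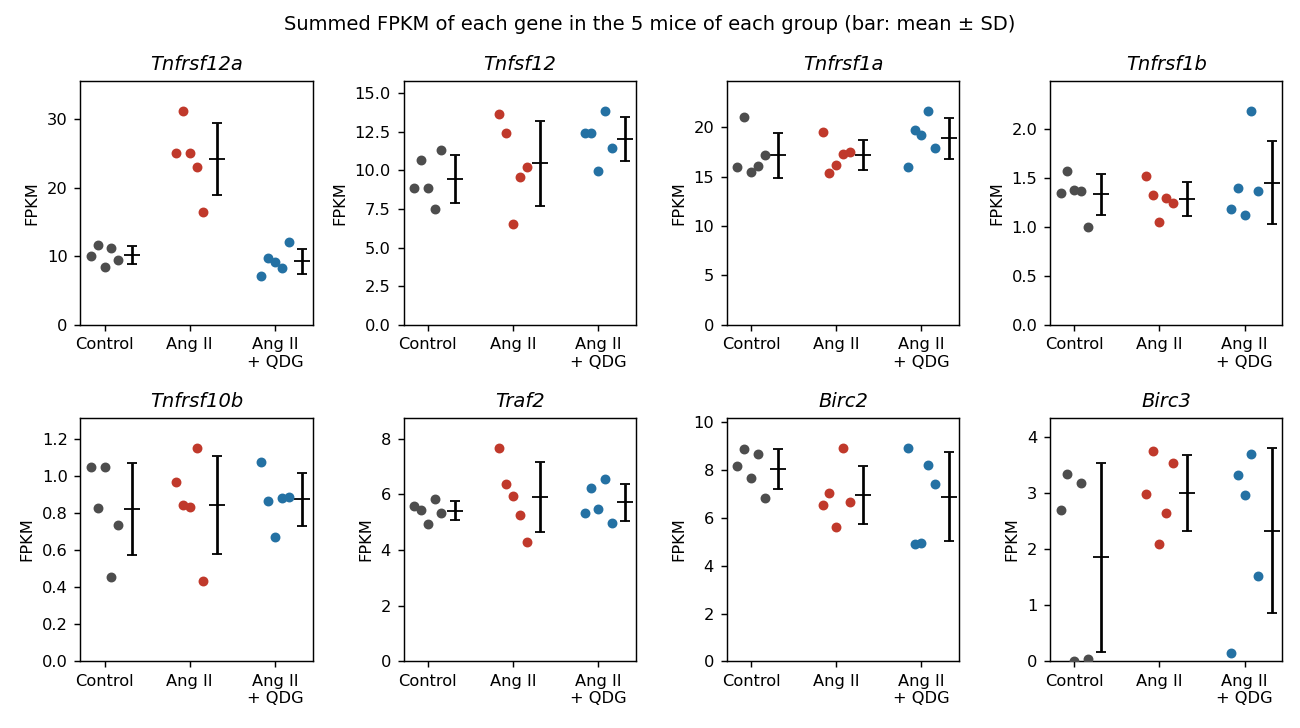
FPKM (y axis, from 0) of the 8 genes in each mouse, as points by group, with the mean and SD of the 5 mice beside them. The 5 Ang II mice lie between 16.4 and 31.1 FPKM for Tnfrsf12a, above all other mice, while the groups overlap for each of the other 7 genes.

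FPKM is scaled by transcript length, so levels can be set side by side between genes. In Control, Tnfrsf1a had the highest mean level at 17.2 FPKM, and its range did not overlap that of the next gene. Tnfrsf12a at 10.2, Tnfsf12 at 9.42 and Birc2 at 8.03 FPKM followed, each overlapping its neighbour in this order. Traf2 at 5.42 FPKM stood apart from both neighbours, and Birc3, Tnfrsf1b and Tnfrsf10b were lowest at 1.85, 1.33 and 0.825 FPKM, again with overlapping ranges. In Ang II, Tnfrsf12a had the highest mean level of the 8 genes, and its range overlapped that of Tnfrsf1a. Among the Ang II + QDG means, Tnfrsf12a came after Tnfrsf1a and Tnfsf12 and overlapped Tnfsf12.

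The ligand did not pass the test in any comparison. Tnfsf12 (ENSMUSG00000097328; chromosome 11, 69686250 to 69695849) encodes TWEAK, a cytokine of macrophages and many other cells. Tnfsf12 had 8.85, 10.7, 8.84, 7.46 and 11.3 FPKM in the Control mice. It had 13.7, 12.4, 6.50, 9.58 and 10.2 FPKM in the Ang II mice and 12.4, 12.4, 9.93, 13.8 and 11.5 FPKM in the Ang II + QDG mice. The Ang II mice held both the second highest and the lowest value of Tnfsf12, and all 3 groups overlapped.

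Means of Tnfsf12 were 9.42 ± 1.55, 10.5 ± 2.76 and 12.01 ± 1.43 FPKM (SD, n = 5 each). The log2 difference was 0.11 in Ang II against Control (95% interval -0.23 to 0.46, limma adjusted p = 0.729) and 0.21 in Ang II + QDG against Ang II (-0.13 to 0.56, adjusted p = 0.56). In Ang II + QDG against Control the log2 difference was 0.33 (-0.02 to 0.67, adjusted p = 0.377), and the QDG mouse was the higher one in 23 of 25 pairs. Without Ang II mouse 1 the first of these values was 0.02, and without Ang II mouse 3 the first was 0.26 and the second 0.07. The first was 0.05 without Ang II mouse 2, 0.04 without Control mouse 4 and 0.18 without Control mouse 5. With quantile normalization and median scaling it was 0.028 and 0.023. The measured transcript, Tnfsf12-202, shared 49.0% of its 50-base windows with the read-through gene Tnfsfm13, which spans this locus, so the values depend on how reads were divided. The log2 differences of both Tnfsfm13 transcripts lay between 0.01 and 0.36, and none passed the test.

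Tnfrsf1a (ENSMUSG00000030341; chromosome 6, 125349362 to 125362484) had the highest mean level of the 3 related receptors in each group. It had 16.0, 21.04, 15.4, 16.1 and 17.2 FPKM in the Control mice, 19.5, 15.4, 16.2, 17.3 and 17.5 FPKM in Ang II, and 16.0, 19.7, 19.2, 21.6 and 17.9 FPKM in Ang II + QDG. The ranges of the 3 groups overlapped over most of their width. Means were 17.2 ± 2.26, 17.2 ± 1.56 and 18.9 ± 2.10 FPKM (SD, n = 5 each). The log2 difference was 0.01 in Ang II against Control (95% interval -0.20 to 0.21, adjusted p = 0.983), 0.13 in Ang II + QDG against Ang II (-0.08 to 0.33, adjusted p = 0.558) and 0.13 in Ang II + QDG against Control (-0.07 to 0.34, adjusted p = 0.561). Without Ang II + QDG mouse 4 the last 2 values were 0.08 each, and without Control mouse 2 the last was 0.20.

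Tnfrsf1b (ENSMUSG00000028599; chromosome 4, 145213463 to 145246870), the TNF receptor associated with leukocytes and endothelium, was scarce. It had 1.34, 1.58, 1.38, 1.37 and 1.00 FPKM in the Control mice, 1.53, 1.33, 1.05, 1.30 and 1.24 FPKM in Ang II, and 1.18, 1.40, 1.12, 2.18 and 1.37 FPKM in Ang II + QDG. Only 1 value, that of Ang II + QDG mouse 4, lay above 2 FPKM, and the groups overlapped. Log2 differences were -0.03 in Ang II against Control (95% interval -0.27 to 0.22, adjusted p = 0.922), 0.09 in Ang II + QDG against Ang II (-0.16 to 0.33, adjusted p = 0.766) and 0.06 in Ang II + QDG against Control (-0.19 to 0.31, adjusted p = 0.851).

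Tnfrsf10b (ENSMUSG00000022074; chromosome 14, 69767472 to 69784411) was the scarcest receptor and did not pass the filter of 1 FPKM in 5 mice, which 4 mice reached. Its levels ran from 0.456 to 1.05 FPKM in Control, from 0.433 to 1.15 in Ang II and from 0.671 to 1.08 in Ang II + QDG. The groups overlapped almost fully. A two-sided exact permutation test over the 252 splits of 5 against 5 mice gave p = 0.865 for Ang II against Control, p = 0.817 for Ang II + QDG against Ang II and p = 0.683 for Ang II + QDG against Control, where the smallest p it can give is 0.00794.

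The adaptors did not pass the test at the gene level either. Traf2 (ENSMUSG00000026942; chromosome 2, 25517982 to 25546940) encodes the adaptor that brings the cIAP proteins to the receptor tails. Traf2 had 5.58, 5.43, 4.92, 5.83 and 5.34 FPKM in the Control mice, 7.66, 6.38, 5.93, 5.25 and 4.29 FPKM in Ang II, and 5.33, 6.23, 5.49, 6.57 and 4.97 FPKM in Ang II + QDG. The Ang II mice held both the highest and the lowest value, so the groups overlapped. Log2 differences were 0.09 in Ang II against Control (95% interval -0.16 to 0.33, adjusted p = 0.71), -0.02 in Ang II + QDG against Ang II (-0.27 to 0.22, adjusted p = 0.947) and 0.06 in Ang II + QDG against Control (-0.19 to 0.31, adjusted p = 0.849).

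Birc2 (ENSMUSG00000057367; chromosome 9, 7818227 to 7837064) encodes cIAP1, a ubiquitin ligase that holds NIK, the kinase of the non-canonical route, at a low level. Birc2 had 8.15, 8.86, 7.65, 8.68 and 6.82 FPKM in the Control mice, 6.53, 7.04, 5.62, 8.90 and 6.68 FPKM in Ang II, and 8.91, 4.92, 4.94, 8.21 and 7.42 FPKM in Ang II + QDG. Its means ran 8.03 ± 0.828, 6.95 ± 1.21 and 6.88 ± 1.86 FPKM (SD, n = 5 each), and the ranges overlapped. Log2 differences were -0.19 in Ang II against Control (95% interval -0.52 to 0.14, adjusted p = 0.503), -0.03 in Ang II + QDG against Ang II (-0.36 to 0.29, adjusted p = 0.944) and -0.23 in Ang II + QDG against Control (-0.56 to 0.10, adjusted p = 0.529).

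Birc3 (ENSMUSG00000032000, chromosome 9, 7848699 to 7873186), which encodes cIAP2 and is a known NF-kappaB target, varied most between mice on the log2(FPKM + 1) scale. The 5 Control mice had 2.70, 3.35, 0.00, 3.18 and 0.041 FPKM. The 5 Ang II mice had 2.99, 3.76, 2.09, 2.65 and 3.54 FPKM, and the 5 Ang II + QDG mice had 0.150, 3.33, 2.96, 3.69 and 1.52 FPKM. Control mice 3 and 5 and Ang II + QDG mouse 1 were listed at or near 0, while every Ang II mouse was above 2 FPKM. Log2 differences were 0.76 in Ang II against Control (95% interval -0.27 to 1.78, adjusted p = 0.378), -0.41 in Ang II + QDG against Ang II (-1.44 to 0.61, adjusted p = 0.726) and 0.35 in Ang II + QDG against Control (-0.68 to 1.37, adjusted p = 0.786). These intervals were the widest among the 6 tested members in the model, and the values moved with the mice near 0. Without Control mouse 3 the first was 0.45 and the third 0.04, and without Control mouse 5 they were 0.47 and 0.05. Without Ang II + QDG mouse 1 the second was -0.07 and the third 0.69, and without Ang II + QDG mouse 4 the third was 0.18. With a pseudocount of 0.1 in place of 1 they were 1.84, -0.80 and 1.03, and none passed the test. The authors' assembled transcripts carry no gene name, so reads given to one at this locus are not in the sums, and their part in the low values was not tested.

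Of the 6 tested members in the model, 0 were called in any of the 3 comparisons by limma at an adjusted p under 0.05, against a background of 5.94% of all genes in Ang II against Control, 1.81% in Ang II + QDG against Ang II and 0.129% in Ang II + QDG against Control. At an unadjusted p under 0.05 the count was also 0, against 22.7%, 16.4% and 14.4% of all genes. With backgrounds of this size, no call among 6 genes is a count that the share of all genes would also give. Their median log2 difference was 0.05, 0.03 and 0.10 in the 3 comparisons, against 0.08, -0.02 and 0.06 over all genes.

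**Figure D2:**
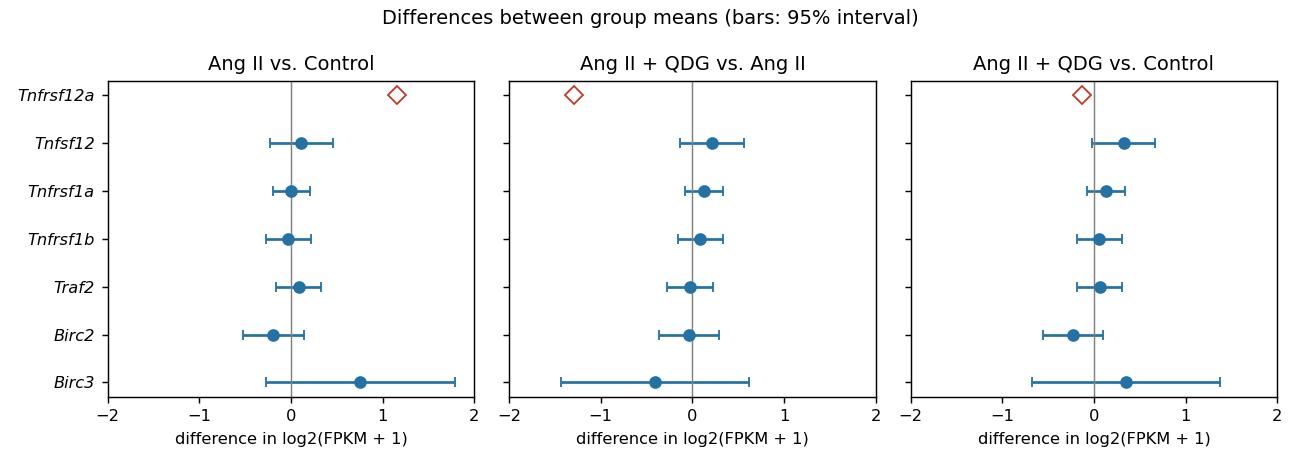
Difference in mean log2(FPKM + 1) (x axis) of the 7 genes in the model for the 3 comparisons, with 95% intervals from limma for the tested genes. Tnfrsf12a (open diamond, no interval because it was selected on these values) lies at 1.15 and -1.29 in the first and second comparison, and the intervals of all other genes include 0.

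Below the gene level, Birc2 transcripts divided the mice. Birc2-202 (ENSMUST00000074246) had 7.55, 7.57, 7.08, 7.80 and 6.07 FPKM in the Control mice. It had 0.012, 0.012, 0.028, 8.35 and 0.029 FPKM in the Ang II mice and 7.89, 0.038, 0.046, 7.70 and 0.292 FPKM in the Ang II + QDG mice. Each mouse thus had the transcript either at over 6 FPKM or close to 0. Birc2-204 (ENSMUST00000190341) had the opposite pattern, with 0.303 to 0.402 FPKM in Control. It had 5.84, 5.43, 5.02, 0.544 and 6.24 FPKM in the Ang II mice and 0.353, 4.35, 4.73, 0.445 and 6.53 FPKM in the Ang II + QDG mice. Birc2-204 was the more abundant of the pair in 0 of 5 Control, 4 of 5 Ang II and 3 of 5 Ang II + QDG mice.

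Neither Birc2 transcript passed the test over 28812 transcripts. For Birc2-204 the log2 difference in Ang II against Control was 1.89 (standard error 0.52, limma adjusted p = 0.0958), and for Birc2-202 it was -2.37 (standard error 0.75, adjusted p = 0.137). For Ang II + QDG against Control the log2 differences were 1.35 (adjusted p = 0.42) and -1.68 (adjusted p = 0.481), and in Ang II + QDG against Ang II they were -0.54 (adjusted p = 0.753) and 0.68 (adjusted p = 0.79). Without Ang II mouse 4, Birc2-204 was called in Ang II against Control. Among the transcripts of the 7 tested members, 0 were called by limma in any comparison, against 0.691%, 0.0972% and 0.0243% of all transcripts. Without adjustment, at p under 0.05, both Birc2 transcripts of the 8 from these members in the model passed in Ang II against Control and in Ang II + QDG against Control, where 15.9% and 10% of all transcripts did. In Ang II + QDG against Ang II 0 of the 8 passed, against 11.3%.

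The sequence of Birc2-202 (3130 bases) lies whole inside that of Birc2-204 (3331 bases), which adds 192 bases before it and 9 after it. Both carry an identical coding sequence of 1836 bases, stop codon aside, so the change between them concerns untranslated sequence. None of the 50-base windows of Birc2-202 is particular to it, and 201 of the 3282 windows of Birc2-204 are. The assignment of reads between these transcripts thus rests on few positions, and the part of this in the split between mice was not tested. The transcript list also differed between Control and the other groups, and its part in these values was not tested.

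Traf2 was also divided between a pair of coding transcripts of 3044 bases (Traf2-201) and 2151 bases (Traf2-202). They differ most in the last exon, of 1647 bases in Traf2-201 and 763 in Traf2-202, and in all 960 of the 2995 50-base windows of Traf2-201 are not found in Traf2-202. Traf2-202 (ENSMUST00000114234) has 21 coding bases at the end of its second exon (chromosome 2, 25538845 to 25538865, GRCm38, minus strand) that Traf2-201 (ENSMUST00000028311) lacks. They are shown in capitals, with 15 bases of transcript on either side, because they are the coding difference between these transcripts in this exon.

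Traf2-202, GENCODE release 21: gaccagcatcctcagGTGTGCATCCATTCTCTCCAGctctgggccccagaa

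Traf2-202 was the more abundant in all 5 Control mice, at 57.2% to 73.5% of the gene's FPKM. Its share in the Ang II mice was 75.6%, 62.1%, 52.8%, 28.6% and 68.5%. Its share in the Ang II + QDG mice was 50.7%, 43.2%, 34.5%, 78.8% and 21.5%. Ang II mouse 4 and Ang II + QDG mice 2, 3 and 5 were thus the mice in which Traf2-201 led. The log2 difference of Traf2-201 was 0.46 in Ang II + QDG against Control (95% interval -0.01 to 0.93, adjusted p = 0.509), and that of Traf2-202 was -0.39 (-1.0 to 0.21, adjusted p = 0.674).

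**Figure D3:**
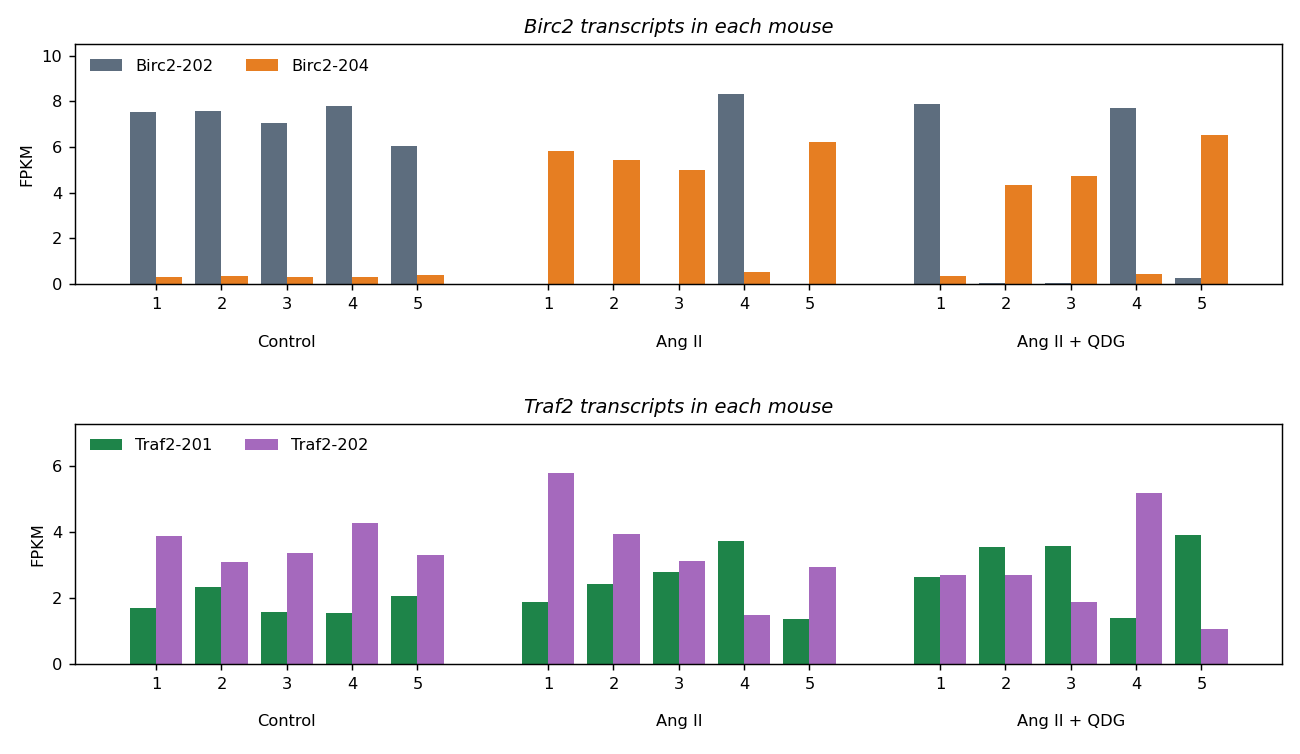
FPKM (y axis, from 0) of the main transcripts of Birc2 (top) and Traf2 (bottom) in each of the 15 mice (x axis, mouse number within its group), as paired bars. Birc2-204 exceeds Birc2-202 in 4 of 5 Ang II and 3 of 5 Ang II + QDG mice and in 0 of 5 Control mice, and Traf2-202 leads in all 5 Control mice.

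The other genes of the pathway were taken from 5 lists with 95 genes in all, of which 50 had a value and 47 entered the model. In Ang II against Control 5 of the 47 rose and 1 fell, against the 5.94% of all genes called. The median log2 difference of the 47 was 0.16 (0.08 over all genes). For Ang II + QDG against Ang II 0 rose and 1 fell, against 1.81% of all genes called, with a median of -0.04 (-0.02 over all genes). For Ang II + QDG against Control 0 were called by limma, against 0.129% of all genes. At an unadjusted p under 0.05 the counts in the 3 comparisons were 12, 8 and 4 of 47, against 22.7%, 16.4% and 14.4% of all genes. The calls in Ang II against Control depended on the scaling, since quantile normalization and median scaling each left 2 calls, Nfkb2 higher and Cxcl10 lower.

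Of 17 other TNF family ligands, only Tnfsf10 (TRAIL) entered the model. Tnfsf10 had 13.0 ± 7.24 FPKM in Control mice, 16.5 ± 2.95 in Ang II mice and 16.1 ± 3.71 in Ang II + QDG mice (SD, n = 5 each), with 1 Control mouse at 1.02 FPKM, and it did not pass the test (adjusted p = 0.464 in Ang II against Control). Tnfsf15 was at 0.475, 0.506 and 0.474 FPKM on average and was under the filter.

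Of 24 other TNF family receptors, 4 entered the model and 1 rose in Ang II against Control, where 5.94% of all genes were called. Tnfrsf21, the death receptor DR6, had 105, 113, 87.1, 119 and 131 FPKM in the Control mice. It had 127, 157, 236, 149 and 191 FPKM in the Ang II mice and 138, 134, 147, 132 and 144 FPKM in the Ang II + QDG mice. The Ang II mice were all above 4 of the 5 Control mice, and the Ang II + QDG mean, 139 FPKM, lay between the Control mean of 111 and the Ang II mean of 172 FPKM. Its log2 difference was 0.61 in Ang II against Control (adjusted p = 0.0267) and -0.27 in Ang II + QDG against Ang II (adjusted p = 0.367). The call for Tnfrsf21 was kept in 17 of 23 alternatives and was lost with quantile normalization, with median scaling, with the compared groups only and without Control mouse 1, Control mouse 3 or Ang II mouse 5. Ltbr, the lymphotoxin receptor, had 36.7 ± 2.06, 37.8 ± 3.09 and 37.2 ± 1.20 FPKM (SD, n = 5 each) and did not pass the test.

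Among the 25 receptor complex genes in the model, 2 rose in Ang II against Control and 1 of them fell in Ang II + QDG against Ang II. In these comparisons 5.94% and 1.81% of all genes were called. Traf4, a TRAF protein linked to epithelial junctions, had 33.0 ± 2.22 FPKM in Control mice, 41.9 ± 3.32 in Ang II mice and 31.7 ± 1.85 in Ang II + QDG mice (SD, n = 5 each). The lowest Ang II value of Traf4, 38.3 FPKM, was above the highest value of both other groups, 35.7 FPKM. Its log2 difference was 0.33 in Ang II against Control (adjusted p = 0.0141) and -0.39 in Ang II + QDG against Ang II (adjusted p = 0.015). Sharpin, a subunit of the linear ubiquitin ligase, had 12.1 ± 1.18, 14.9 ± 1.22 and 11.7 ± 0.733 FPKM, with a log2 difference of 0.27 in Ang II against Control (adjusted p = 0.0497) and -0.32 in Ang II + QDG against Ang II (adjusted p = 0.0505). In Ang II against Control the call for Sharpin was kept in 1 of 23 alternatives, that with all listed transcripts. It was kept in 0 of the 15 fits with 1 mouse left out. The call for Traf4 was kept in 21 of 23 and was lost with quantile normalization and with median scaling. Cflar, the caspase inhibitor c-FLIP, had 17.0 ± 4.90, 21.7 ± 4.97 and 16.8 ± 4.51 FPKM and did not pass the test (adjusted p = 0.362 in Ang II against Control).

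Of the 10 NF-kappaB module genes in the model, 2 rose in Ang II against Control, where 5.94% of all genes were called. Chuk, the kinase IKKα, had 54.0 ± 4.65, 67.7 ± 5.53 and 54.7 ± 5.34 FPKM, a log2 difference of 0.32 in Ang II against Control (adjusted p = 0.0312) and -0.30 in Ang II + QDG against Ang II (adjusted p = 0.0695). Nfkb2, the precursor that the non-canonical route processes, had 4.33 ± 0.863, 6.32 ± 0.717 and 5.37 ± 0.406 FPKM, with log2 differences of 0.47 (adjusted p = 0.0241) and -0.20 (adjusted p = 0.385). The call for Chuk was kept in 11 and that for Nfkb2 in 17 of 23 alternatives. Nfkbia, the inhibitor IκBα, had 20.9 ± 3.00, 19.2 ± 3.99 and 21.99 ± 4.02 FPKM and did not pass the test.

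Of the 7 NF-kappaB target genes in the model, 0 rose and 1 fell in Ang II against Control, where 5.94% of all genes were called. Cxcl10, a chemokine that interferon also induces, had 4.24, 5.26, 6.29, 3.28 and 2.51 FPKM in Control. It had 1.97, 1.64, 0.878, 1.67 and 1.28 FPKM in Ang II and 1.12, 2.39, 1.71, 1.58 and 1.24 FPKM in Ang II + QDG. Every Control mouse was above every mouse of the other groups. The log2 difference of Cxcl10 was -1.06 in Ang II against Control (adjusted p = 0.0111), 0.06 in Ang II + QDG against Ang II (adjusted p = 0.915) and -1.0 in Ang II + QDG against Control (adjusted p = 0.0658). Icam1, an adhesion molecule, had 8.63 ± 2.05, 8.89 ± 1.10 and 8.43 ± 1.09 FPKM and Cx3cl1 (fractalkine) 17.2 ± 7.52, 16.8 ± 10.6 and 12.2 ± 10.997 FPKM, and neither passed the test.

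**Figure D4:**
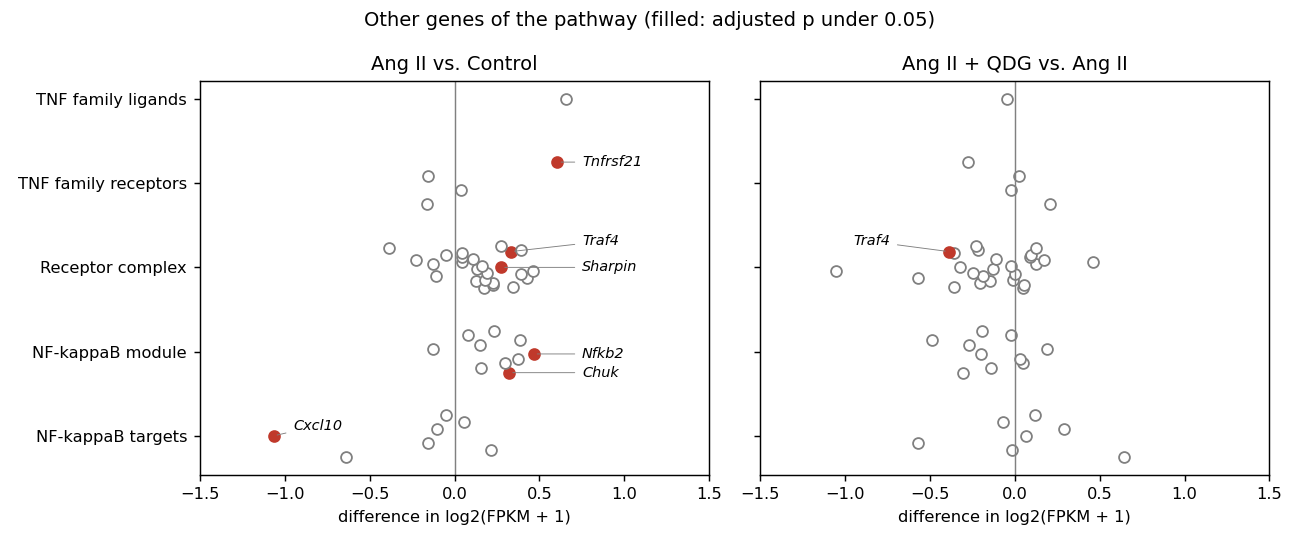
Difference in mean log2(FPKM + 1) (x axis) of the 47 other pathway genes, by list (y axis, spread for legibility), in Ang II against Control and Ang II + QDG against Ang II. Filled points have an adjusted p under 0.05, with 5 higher and 1 lower on the left and only Traf4, lower, on the right.

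Among all 12366 genes in the model, the profiles most like that of Tnfrsf12a over the 15 mice were those of Trim8 and Bysl (Pearson r = 0.915 each), Gm7292 (0.910), Eif3b (0.904), Lrrc59 and Eef1e1 (0.883 each), 2510002D24Rik (0.880), Lmnb2 and Scamp3 (0.878 each) and Stt3b (0.876). These values are descriptive, since the mice share their groups and Tnfrsf12a was selected for its group pattern. With the group means removed, r ranged from 0.150 for Lrrc59 to 0.771 for Gm7292. Their group means moved less than those of Tnfrsf12a. Lmnb2, which encodes lamin B2, had 2.97 ± 0.297, 5.30 ± 0.875 and 3.48 ± 0.523 FPKM (SD, n = 5 each). Trim8, a ubiquitin ligase, had 21.7 ± 0.804, 26.2 ± 2.38 and 21.5 ± 1.28 FPKM. For the members themselves r with Tnfrsf12a was 0.440 for Birc3, 0.300 for Traf2, -0.115 for Tnfsf12, -0.139 for Birc2, -0.141 for Tnfrsf1b and -0.179 for Tnfrsf1a.

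Markers of other cells were read beside these results. The summed level of the 6 smooth muscle and pericyte markers was 50.7 to 66.8 FPKM in Control, 55.4 to 117 in Ang II and 69.5 to 83.1 in Ang II + QDG. Of the 6, 2 rose in Ang II against Control, where 5.94% of all genes were called. These were Tagln and Pdgfrb (limma adjusted p = 0.0326 and 0.0468). The median sums were 56.2, 80.8 and 74.2 FPKM. The 4 leukocyte markers with a value summed to 3.87 to 5.54 FPKM in Control, 2.60 to 6.38 in Ang II and 4.17 to 7.82 in Ang II + QDG, with medians of 4.45, 3.30 and 4.69 FPKM, and Itgam, Cd3e, Cd8a and Ly6g were among those with no value. The highest Ang II sum was that of mouse 2, in which Csf1r was at 2.20 FPKM. The log2 differences of Cd68, Adgre1 and Ptprc, the 3 leukocyte markers in the model, were -0.34, -0.39 and -0.10 in Ang II against Control. For Ang II + QDG against Ang II they were 0.36, 0.28 and 0.35. Both sets were opposite in sign to those of Tnfrsf12a, and none passed the test. Csf1r, under the filter and not tested, instead had means in the direction of Tnfrsf12a. They were 0.036 FPKM for Control mice, 0.566 for Ang II mice and 0.421 for mice given QDG as well. The Ang II mean of Csf1r rested largely on mouse 2, the other Ang II mice having 0.011 to 0.232 FPKM. The 3 injured tubule markers with a value summed to 71.1 to 335 FPKM in Control, 61.7 to 140 in Ang II and 93.8 to 142 in Ang II + QDG, the highest sums being in Control mice 4 and 5. Nearly all of this sum was Spp1, with group means of 190, 101 and 108 FPKM, while Lcn2 had 2.52, 4.02 and 4.91 FPKM, and neither passed the test. Havcr1, Krt20 and Sox9 had no value.

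The 4 endothelium markers summed to 36.1 to 61.9, 37.3 to 61.0 and 43.5 to 63.1 FPKM in the 3 groups. Urothelium markers, 4 of 5 with a value, summed to 0.620 to 6.98, 0.824 to 13.8 and 0.669 to 7.98 FPKM, and the 1 adrenal cortex marker with a value was at 0.692 to 1.45 FPKM over all mice. Adipose markers, 4 of 5 with a value, reached 45.1 FPKM in Control mouse 2 and 79.0 FPKM in Ang II mouse 1 and were at most 16.9 FPKM in the other mice. Without these 2 mice the log2 difference of Tnfrsf12a was 1.18 in Ang II against Control and -1.27 in Ang II + QDG against Ang II, and 0 of the other members were called. Of the 6 pathway genes called in Ang II against Control, 4 were called without these mice, and Sharpin and Chuk were not. The part of the other markers' levels in the results was not tested.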

How the data were processed

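Total RNA of mouse kidney was depleted of rRNA, and the study's methods also name a kit for poly(A) mRNA isolation. The libraries were sequenced in paired ends. For each mouse, the authors deposited a value per transcript without naming its unit; the deposited values were read as FPKM, since 98.5% to 98.7% of values under 200 reads were whole multiples (within 0.05) of 1 read per GENCODE length. The aligner is not given in the sources used here, and the labels name mm10. The 40054 transcripts shared by all files include 11141 assembled ones with no gene name; 28863 matched GENCODE release 21 (GRCm38) and were summed per gene. Genes that reached 1 FPKM in 5 or more mice were tested in 1 limma model (limma 3.58.1, R 4.3.3) of 3 groups on log2(FPKM + 1) with a mean-variance trend and Benjamini-Hochberg adjustment. The pseudocount makes fold changes of low genes smaller. The test was checked on simulated data. Replicate numbers follow accession order. Members, gene lists and named genes (the 2 genes of highest mean per list, all called genes, and the 10 genes with the highest r with Tnfrsf12a) were chosen with earlier results of these data known. Alternatives were another pseudocount, no filter, quantile or median scaling, other transcript sets, 2 groups only and each mouse left out.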

Additional observations from a re-analysis of the deposited data

Results flagged for a closer look

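Dixon's test was applied to the 5 mice of each group for the 8 genes and the 13 named pathway genes, 63 groups in all, of which 2 were flagged; chance flags about 1 in 20. Tnfrsf1b was at 2.18 FPKM in Ang II + QDG mouse 4, and the other 4 mice of that group had 1.12 to 1.40 FPKM. Cx3cl1 was at 4.14 FPKM in Control mouse 2, and the other 4 Control mice had 18.1 to 22.8 FPKM. Ang II mice 1 and 3 and Ang II + QDG mice 1, 3 and 4 had Cx3cl1 at a similar low level of 3.93 to 5.32 FPKM, and the other mice of these groups had 23.6 to 24.9 FPKM.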

How the results depend on the processing

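Tnfrsf12a kept its direction under all 23 alternatives in each comparison, which is only a description, since the gene was selected on these values. Of the other members 0 passed the test under any alternative (21 for Tnfrsf10b, by the exact permutation test). No paired analysis was possible because nothing in the labels pairs mice across groups. The alternative without the 2 mice richest in adipose markers was chosen after seeing the data. Among transcripts, 0 to 1 member transcripts were called in Ang II against Control with 1 mouse left out, the 1 being Birc2-204 without Ang II mouse 4. Of the other pathway genes, 6 were called in Ang II against Control, and 2 with quantile normalization, 2 with median scaling, 2 with the compared groups only and 2 to 5 with 1 mouse left out (2 without Control mouse 1, Control mouse 3 or Ang II mouse 5, and 3 without Ang II mouse 2). In Ang II + QDG against Ang II 1 was called, 2 with a pseudocount of 0.1 and 1 to 2 with 1 mouse left out (2 without Control mouse 5 or Ang II mouse 1). In Ang II + QDG against Control 0 were called, 1 (Cxcl10) with quantile normalization, median scaling or all listed transcripts, and 0 to 1 with 1 mouse left out (1 without Control mouse 5).

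Small differences that did not pass the test changed sign. With quantile normalization and median scaling, in Ang II against Control, Tnfrsf1a was at -0.081 and -0.085, Traf2 at -0.008 and -0.005 and Tnfrsf10b at -0.076 and -0.074; in Ang II + QDG against Control, Tnfrsf1b was at -0.036 and -0.018, Traf2 at -0.021 and -0.017 and Tnfrsf10b at -0.039 and -0.029. In Ang II + QDG against Ang II, Birc2 was at 0.02 with protein-coding transcripts only and Traf2 at 0.062 without the 2 adipose-rich mice. With 1 mouse left out, Ang II against Control gave -0.039 to 0.078 for Tnfrsf1a, -0.081 to 0.013 for Tnfrsf1b, -0.001 to 0.177 for Traf2 and -0.062 to 0.105 for Tnfrsf10b. Ang II + QDG against Ang II gave -0.011 to 0.135 for Tnfrsf1b, -0.116 to 0.062 for Traf2, -0.126 to 0.06 for Birc2 and -0.056 to 0.091 for Tnfrsf10b. Ang II + QDG against Control gave -0.038 to 0.109 for Tnfrsf1b and -0.03 to 0.094 for Tnfrsf10b. Tnfsf12 and Birc3 kept their sign with 1 mouse left out, at 0.015 to 0.257 and 0.452 to 0.982 in Ang II against Control and 0.068 to 0.31 and -0.576 to -0.069 in Ang II + QDG against Ang II. So did Tnfrsf1a, at 0.078 to 0.181 in Ang II + QDG against Ang II, and, in Ang II + QDG against Control, Tnfrsf12a at -0.226 to -0.053, Tnfrsf1a at 0.083 to 0.203, Traf2 at 0.017 to 0.102, Birc2 at -0.317 to -0.131 and Birc3 at 0.04 to 0.689. The cause was not tested.

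Over all genes, 735 calls in Ang II against Control became 472 with median scaling, 408 with protein-coding transcripts, 456 with 2 groups and at least 338 with 1 mouse left out (Control mouse 1). The 224 calls in Ang II + QDG against Ang II became 58 with 2 groups, 134 without the 2 adipose-rich mice and at least 53 with 1 mouse left out (Ang II mouse 2). The 16 calls in Ang II + QDG against Control ranged from 0 (without Control mouse 4) to 138 (without the 2 adipose-rich mice). Tnfrsf10b, with 106 to 265 reads per mouse, was under the filter because of its low level.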
